A study of Homo sapiens with 4 samples.

Results

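The genes described here are the suppressors of cytokine signalling SOCS1 to SOCS7 and 2 genes of the JAK-STAT core, the kinase JAK1 and the transcription factor STAT3. They were found by gene symbol in the 1 table deposited for the series, and all 9 members were present among its 13957 genes. The study treated MDA-MB-231 Fluc cells for 2 h with 50 μM cordycepin (3′ deoxyadenosine) or with the vehicle DMSO and sequenced 2 samples of each, 4 libraries in all. MDA-MB-231 is an established triple-negative breast cancer cell line, and the cells of both groups carry an inserted luciferase gene. The labels do not say whether the 2 samples of a group came from separate cultures. The libraries were stranded, made from total RNA after ribosomal RNA depletion, and read as 75 bp pairs.

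For each gene, the deposited table gives 1 mean level over all libraries, treated and vehicle together, as log2 CPM, the binary logarithm of the read count scaled to a library of standard size. It also gives the authors' own comparison of cordycepin with DMSO, which was not used, so the values below are levels and say nothing of a change with cordycepin. No SD can be given for them and no difference between genes was tested, since single libraries have no column of their own in it. For the same reason their depth is unknown. Since longer transcripts yield more fragments, levels were compared between genes after division by the deposited gene length, as log2 CPM per kb. For the 9 members log2 CPM is given beside it, and for most other genes only the level per kb is given. The lengths of the longest transcript, the canonical transcript and the exon union in GENCODE release 44 were tried as alternatives. All genes means the 13957 genes listed, of which the lowest was at 0.56 log2 CPM, so ranks leave out genes without a value.

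Cytokine receptors of the JAK-STAT type have no kinase activity of their own and rely on JAK kinases bound to their cytoplasmic tails. On ligand binding the JAKs phosphorylate the receptor, STAT proteins dock through their SH2 domains, are phosphorylated in turn, form dimers and activate genes in the nucleus. Some SOCS genes are among those targets, and their proteins close a negative feedback loop. Each SOCS protein has an SH2 domain that finds its target and a C-terminal SOCS box that recruits an elongin and cullin ubiquitin ligase, and SOCS1 and SOCS3 can also inhibit JAK catalysis directly.

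Markers of the labelled cell line were examined first. Per length, the mesenchymal genes VIM, CD44 and CAV1 were above 98.9%, 97.9% and 99.1% of all genes and EGFR was above 87.9%. Of 4 genes expected to be absent or low, the hormone receptor genes ESR1 and PGR had no value. The other 2, the epithelial genes CDH1 and EPCAM, had a value. CDH1 was at 1.07 log2 CPM per kb, above 26.9% of genes. EPCAM was at 2.40, above 49.3% of genes and close to the median, which goes against its expected low level. Before division by length CDH1 and EPCAM were both at 3.68 log2 CPM, above 35.5% and 35.6% of genes.

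JAK1 and STAT3 had the highest levels of the 9 members per length. JAK1, the kinase shared by interferon, IL-6 family and common gamma chain receptors, lies on the minus strand of chromosome 1 (64833229 to 65067754, GRCh38) and had a mean level of 7.31 log2 CPM, which equals 159 CPM. This was above 90.4% of all genes. STAT3, the main STAT of IL-6 family cytokines, lies on the minus strand of chromosome 17 (42313324 to 42388568) and had 7.13 log2 CPM, or 140 CPM, above 88.7% of genes. Gene length changed their order. JAK1 is listed with 12620 bases and STAT3 with 8812 bases, and per length STAT3 had the higher level, at 3.99 log2 CPM per kb, above 76.5% of all genes. JAK1 was at 3.66, above 71.6%. With the canonical transcript as length the order turned, with JAK1 at 4.97 and STAT3 at 4.83. The difference of JAK1 less STAT3 was 0.19 in log2 CPM and -0.33 in log2 CPM per kb. With the exon union of GENCODE release 44 as length it was -0.046.

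Of the SOCS genes, SOCS4 and SOCS3 had the highest levels per length. SOCS4 (chromosome 14, 55027230 to 55049489, plus strand), which has been linked to control of EGF receptor signalling, had 5.72 log2 CPM, or 52.8 CPM, and 2.91 log2 CPM per kb. SOCS3 (chromosome 17, 78356778 to 78360077, minus strand), the feedback inhibitor of the IL-6 receptor subunit gp130, had 4.02 log2 CPM, or 16.2 CPM. SOCS3 is one of the short members, with 2734 bases, and its 2.56 log2 CPM per kb placed it second among the SOCS genes, although SOCS6 and SOCS7 were also above it in log2 CPM. These were the only SOCS genes above the median of all genes per length, which was 2.43 log2 CPM per kb. SOCS4 was above 58.8% of genes and SOCS3 above 52.5%. With the longest transcript as length 1 SOCS gene was above the median of all genes and with the canonical transcript 0 were, while SOCS4 and SOCS3 had the highest SOCS levels with each of the 4 lengths.

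SOCS6 and SOCS7, a pair of closely related members that bind components of insulin and receptor tyrosine kinase signalling, followed. SOCS6 (chromosome 18, 70289045 to 70330199, plus strand) had 4.40 log2 CPM and SOCS7 (chromosome 17, 38351844 to 38405593, plus strand) had 4.41. In log2 CPM they were side by side, but SOCS7 is listed with 9005 bases and SOCS6 with 5839, so that per length SOCS6 was at 1.86 and SOCS7 at 1.24 log2 CPM per kb. SOCS7 was the median SOCS gene on that scale.

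The lowest levels per deposited length belonged to SOCS5, SOCS1 and SOCS2. SOCS5 (chromosome 2, 46698952 to 46780245, plus strand), the closest relative of SOCS4, had 3.82 log2 CPM and 0.91 log2 CPM per kb. SOCS1 (chromosome 16, 11254408 to 11256204, minus strand), the inhibitor of interferon signalling, had 1.59 log2 CPM, or 3.01 CPM, above 9.82% of all genes and the lowest of the members before division by length. SOCS1 is also the shortest, with 1797 bases, and had 0.74 log2 CPM per kb. SOCS2 (chromosome 12, 93569814 to 93583487, plus strand), the inhibitor of growth hormone signalling, had 2.83 log2 CPM, and its 0.14 log2 CPM per kb was the lowest of the 9 members, above 14.8% of genes. These 3 genes were below the lower quartile of all genes per length, which was 0.94 log2 CPM per kb. This order depended on the length used. With the longest transcript the lowest were SOCS1, SOCS2 and SOCS7, and with the canonical transcript SOCS1 at 1.28, SOCS7 at 1.36 and SOCS5 at 1.56, while SOCS2 rose to 1.58 log2 CPM per kb.

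**Figure D1:**
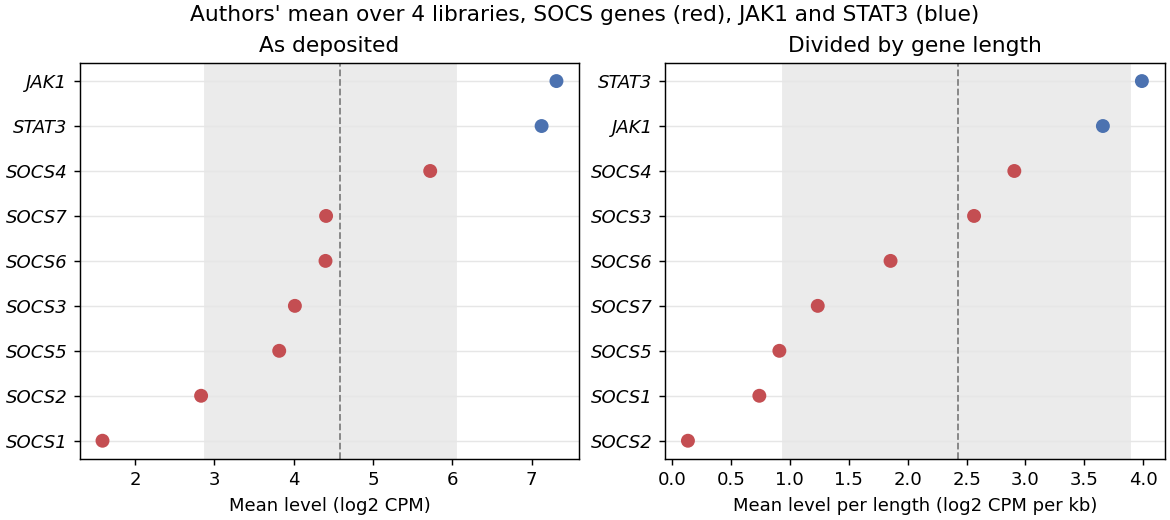
Mean level of each member over the 4 libraries, in log2 CPM (left) and in log2 CPM per kb of deposited gene length (right), as 1 point per gene without an error, since the table has no values per library. SOCS genes are red, JAK1 and STAT3 blue. The grey band spans the lower to the upper quartile of all 13957 genes and the dashed line is their median. JAK1 and STAT3 lie to the right of every SOCS gene in both panels, and SOCS3 moves up and SOCS7 down when length is taken into account.

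The inhibitors were then compared with the kinase and the STAT. The median of the 7 SOCS genes was 1.24 log2 CPM per kb, with a range from 0.14 to 2.91. The median of JAK1 and STAT3 was 3.82, higher by 2.58 on the log2 scale or 6.0-fold. Both JAK1 and STAT3 were above each of the 7 SOCS genes, and the smallest gap, between JAK1 and SOCS4, was 0.75 on the log2 scale or 1.68-fold. It was 1.42 with the longest transcript, and 1.89 or 3.72-fold, between STAT3 and SOCS4, with the canonical transcript. With the exon union of GENCODE release 44 it narrowed to 0.69 or 1.61-fold, between JAK1 and SOCS4. Among themselves the SOCS genes covered 2.77 on the log2 scale per length, a 6.82-fold range from SOCS2 to SOCS4. This range narrowed to 2.18 with the longest transcript and 1.65 with the canonical transcript. Whether neighbours in this order, such as SOCS4 and SOCS3 or JAK1 and STAT3, differed by more than the spread between libraries was not tested.

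**Figure D2:**
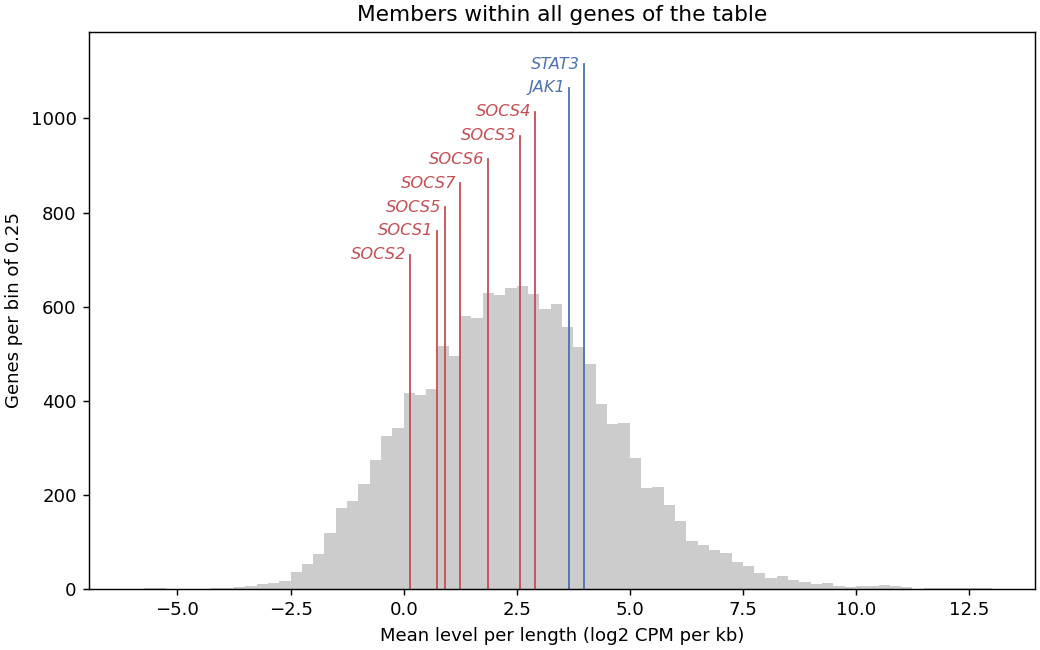
Histogram of the mean level per length (log2 CPM per kb, horizontal axis) of all 13957 genes, in bins of 0.25, with the number of genes on the vertical axis. Vertical lines mark the SOCS genes (red) and JAK1 and STAT3 (blue), and the height of a line carries no value. The SOCS genes lie between 0.14 and 2.91, on both sides of the median of 2.43, and JAK1 and STAT3 lie near the upper quartile of 3.88.

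The members also differed in gene structure. In the canonical transcripts of GENCODE release 44, the coding sequence lies in 1 exon in SOCS1, SOCS3, SOCS4, SOCS5 and SOCS6, whereas it covers 2 exons in SOCS2, 9 in SOCS7, 24 in JAK1 and 23 in STAT3. Coding bases made up from 19.1% of the canonical transcript in SOCS4 to 51.1% in SOCS1. In JAK1 they made up 68.0% and in STAT3 46.9%. Few transcripts are annotated for most SOCS genes, with 2 for SOCS1 and SOCS3 and 12 for SOCS2, but there are 31 for JAK1 and 50 for STAT3. The deposited length equals the exon union of GENCODE release 44 for 6 of the 9 members, the exceptions being SOCS1, JAK1 and STAT3. It exceeded the canonical transcript most in SOCS2, where they were 6477 and 2386 bases, and in JAK1, where they were 12620 and 5092 bases. In STAT3 they were 8812 and 4921 bases, and in SOCS3 both were 2734 bases. With canonical transcript lengths the distance between the medians of JAK1 and STAT3 and of the SOCS genes rose to 3.32 on the log2 scale.

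Exons shared with other genes were few. On the same strand, 2.14% of the SOCS5 exon bases and 4.91% of those of JAK1 also belonged to another annotated gene. On the opposite strand this was 4.28% for SOCS2 and 0.0759% for JAK1. The other 6 members overlapped no exon of another gene in that annotation.

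The rest of the pathway was examined by role, with lists written from general knowledge. In the whole family of receptor-bound kinases, 3 of 4 had a value, and TYK2, a partner of JAK1 at interferon receptors, was higher than JAK1, at 4.44 log2 CPM per kb. JAK2, the kinase of growth hormone and erythropoietin receptors, was at -0.58, below 7 of 7 SOCS genes and above only 7.78% of all genes. So the position of JAK1 above the SOCS genes did not extend to every JAK. JAK3 had no value. Of the 6 STAT genes examined, 5 had a value and STAT3 was the highest. STAT6, the STAT of IL-4 and IL-13, was at 3.39 log2 CPM per kb. STAT5A was the lowest at 1.06, within the range of the SOCS genes, while STAT5B, its close paralogue, was at 2.96. STAT5A and STAT5B are similar in sequence, and how reads that fit both were counted is not given in the sources used here. STAT2, which acts in the type I interferon response, was at 2.57. With the exon union of GENCODE release 44 as length STAT5B was at 2.05, STAT2 at 1.98 and STAT5A at 0.91. STAT5B and STAT2 were then below SOCS4 and SOCS3. STAT4 had no value.

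Other inhibitors of the pathway spanned a wider range than the SOCS genes. The tyrosine phosphatase genes PTPN11 and PTPN1 were the highest of 8, at 6.16 and 5.46 log2 CPM per kb, above STAT3. Their order depended on the length used. With the exon union of GENCODE release 44 PTPN11 was at 5.22, below PTPN1 at 5.46. PTPN11 encodes SHP2, which also promotes signalling through RAS and ERK, and PTPN1 encodes PTP1B, which dephosphorylates JAK2 and TYK2. The phosphatase gene PTPN6, best known from blood cells, was the lowest at -0.66, with 3.17 CPM before division by length. The PIAS genes, which encode SUMO ligases that bind STATs, were at 0.29 for PIAS2, 1.33 for PIAS1, 2.55 for PIAS4 and 3.23 for PIAS3, a range close to the 0.14 to 2.91 of the SOCS genes. Another list held 5 genes as partners of the SOCS box in ubiquitin ligation, ELOB, ELOC, CUL5, RNF7 and ARIH2. All 5 were above each of the SOCS genes per deposited length. With the exon union of GENCODE release 44 this held for 4, as ELOC was then at 2.30, below SOCS4 and SOCS3. Per deposited length the 5 genes ranged from the elongin C gene ELOC at 3.22 to the elongin B gene ELOB at 6.48 log2 CPM per kb. The scaffold gene CUL5 was at 3.39, its RING partner RNF7 at 3.72 and ARIH2 at 3.79. The level of ELOB depended on the length used. It was 6.67 with the canonical transcript, 4.78 with the longest transcript and 4.12 with the exon union. The ligase subunits serve other adaptor proteins as well.

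Among 18 receptor genes, 14 had a value. The highest was IL6ST, which encodes gp130, the target of SOCS3, at 4.96 log2 CPM per kb, with IL13RA1 at 4.72 and the oncostatin M receptor gene OSMR at 4.20. With the exon union of GENCODE release 44 IL6ST was at 4.70, just below IL13RA1. IL6R, which encodes the ligand-binding chain that pairs with gp130, had no value. IFNAR2 was the lowest at -1.29, although IFNAR1, the other chain of the type I interferon receptor, was at 3.51. The deposited lengths of both are shorter than their exon unions in GENCODE release 44, and with those IFNAR2 was at -2.88 and IFNAR1 at 2.32. Before division by length IFNAR2 had 1.89 CPM, near the lowest value of all genes, 1.47 CPM. Overlap with exons of other genes was not examined for the receptor genes. Of 8 ligand genes, 5 had a value. CLCF1, IL11 and LIF, ligands that signal through gp130, were at 3.34, 3.18 and 3.00 log2 CPM per kb. IL6 itself was the lowest at 0.39, but with the canonical transcript as length it was at 1.27, above CNTF at 0.68. In CPM both were low, with 2.71 for IL6 and 3.04 for CNTF.

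**Figure D3:**
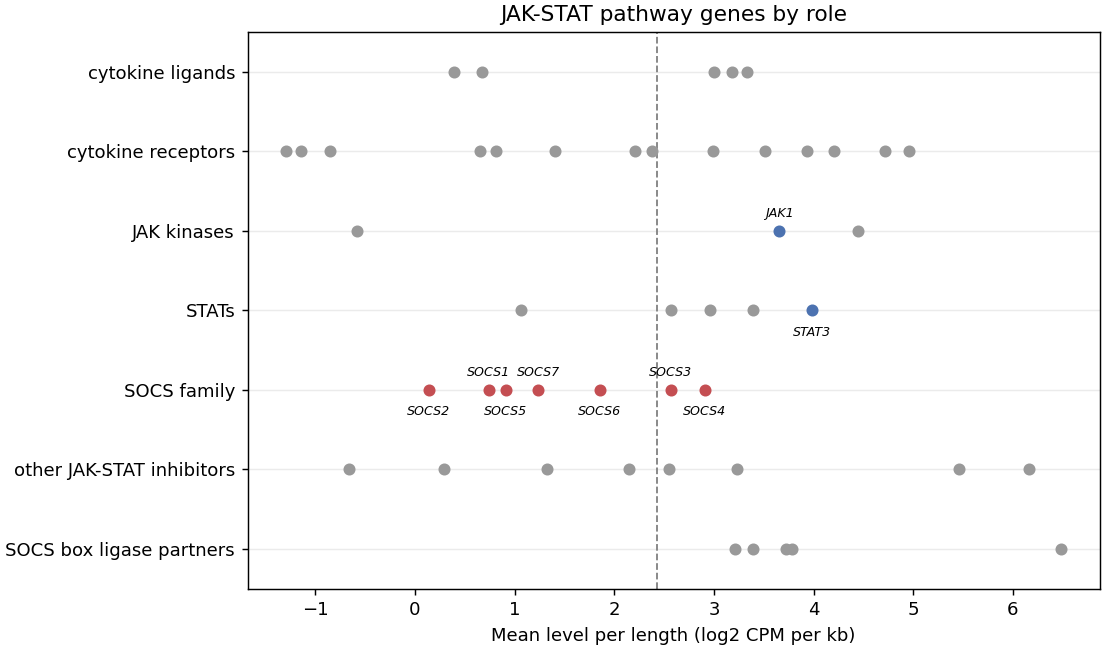
Mean level per length (log2 CPM per kb, horizontal axis) of the pathway genes that had a value, 1 row per role and 1 point per gene, with SOCS genes in red, JAK1 and STAT3 in blue and other genes in grey. The dashed line is the median of all genes, 2.43. With the deposited length, which is plotted, all 5 ligase partner genes lie to the right of the SOCS genes (4 with the exon union of GENCODE release 44), whereas the other inhibitors reach from -0.66 to 6.16.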

How the data were processed

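Reads from the 4 libraries were mapped by the authors to GRCh38.p13 and counted with rsubread. The submitters' processing notes also name hg38, TopHat, HTSeq, DESeq and Cufflinks, without their roles. The authors' deposited table gives a mean level in log2 CPM and a gene length in bases for each gene. Its fold change, F statistic, p-value and adjusted p-value columns hold the authors' own comparison and were not used. The normalization, the low-count filter and the use of strand in counting are not given in the sources used here.

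Per gene, log2 of the length in kb was subtracted from log2 CPM. The percent of genes with a lower value gave the rank. GENCODE release 44, of the same build, held 99.7% of the gene IDs, and 73.7% of these had a deposited length equal to its exon union. Coordinates are those of the table. No test was made, and the calculation was tested on simulated levels. The members and the gene lists were chosen with earlier results of these data known. The result for 1 listed gene is not reported here. All 9 members are described, and of each other list the highest and lowest gene per kb, with further genes chosen after their values were seen. Python 3.11.15, numpy 2.4.6, pandas 2.3.3 and matplotlib 3.10.9 were used.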

Additional observations from a re-analysis of the deposited data

How the results depend on the processing

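The distance of JAK1 and STAT3 from the SOCS genes, 2.58 on the log2 scale per kb, kept its direction under each alternative. It was 3.01 with the longest transcript as length, 3.32 with the canonical transcript and 3.21 without division by length. It was 2.34 with means in place of medians and 1.94 for the same 7 SOCS genes against all examined JAK and STAT genes with a value. CISH, the other gene of the SOCS list, had no value. With the exon union of GENCODE release 44 the distance was 2.38. This length, and all 3 other lengths for the orders of single genes, were chosen after seeing the data. The median rank of the SOCS genes in log2 CPM was above 40.7% of all genes. It was 33.1% among protein-coding genes and 29.3% when ranked per kb. All 9 members ranked lower among protein-coding genes, with differences in percentile from -7.71 to -1.14. Per kb, SOCS1 and SOCS3 ranked higher and the other 7 lower. No library could be left out and no paired analysis was possible because the table has 1 mean per gene for all libraries. The level of a gene is a mean over treated and vehicle samples and is not the level in either.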
